A study of Mus musculus with 3 samples.

Results

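The cells described here are smooth muscle cells (SMCs) of the mouse ascending aorta that carried transcripts of *Tnnt2*, cardiac troponin T, or *Tcap*, telethonin. They were chosen from their own measured values. A cell barcode entered with 600 to 5000 detected genes and at most 10% of its unique molecular identifiers (UMIs, 1 per captured transcript) from mitochondrial genes. It counted as an SMC when *Acta2*, *Myh11*, *Tagln*, *Cnn1*, *Myl9* and *Tpm2* together reached 150 UMIs per 10000 of the cell, *Dcn* stayed below 10 per 10000 and neither *Ptprc* nor *Pecam1* was detected. Gated SMCs with *Rgs5* below 5 per 10000 and with *Tnnt2* plus *Tcap* at 2 per 10000 or more formed the group, called *Tnnt2*/*Tcap* SMCs below. They numbered 6947 of 12913 gated SMCs, of 26158 barcodes that passed the filter and of 33178 barcodes in all. Their *Rgs5*-low counterparts under the limit, 5583 cells, are called other SMCs, and 383 gated SMCs were set aside for their *Rgs5* level.

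The study asked how aortic cells are changed in a mouse model of Marfan syndrome and by losartan, a blocker of the angiotensin II type 1 receptor. It profiled the ascending aortas of male C57BL/6J mice at P45 by droplet single-cell RNA-seq, with 1 library for each of 3 groups. The WT library came from wild-type littermates, the mgR library from *Fbn1* mgR/mgR mice, which are homozygous for an allele that lowers fibrillin-1 production in every cell that uses the gene, and the mgR-LOS library from *Fbn1* mgR/mgR mice given losartan at 0.6 g/L in drinking water from P16. What the untreated mgR mice drank is not given in the labels, and aortas of several animals were pooled before each library. With 1 library for each group no difference between groups could be tested against animals. Differences between cell classes were seen within each of the 3 libraries and were not tested over them. All values below are thus descriptions, and all 95% intervals are exact and cover counting error only.

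Troponin T is the subunit that ties the calcium-sensing troponin complex to tropomyosin on the thin filament of striated muscle, and *Tnnt2* encodes the cardiac form. Telethonin caps the amino-terminal ends of titin at the Z-disc of striated muscle, and its gene is known as an output of the circadian clock in muscle. Smooth muscle is regulated mainly through phosphorylation of the myosin light chain and not through troponin. Desmin (*Des*) is the intermediate filament protein of muscle, *Itih4* encodes a heavy chain of the inter-alpha-trypsin inhibitor family and *Cp* encodes ceruloplasmin, a copper-carrying ferroxidase.

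Among the genes that carried the result, promoters whose 120 listed bases hold a motif match are shown, with 1 start for each gene. In *Tnnt2* 1 of the promoters listed holds the letters of a muscle element, and the genes that went with *Tcap* include targets of the circadian clock. The sequences are RefSeq's for GRCm38.p6, read 5′ to 3′ on the gene's strand and numbered backwards from -1, the base before the transcript start. Capitals mark CATTCC, the M-CAT element, in *Tnnt2* (chr1:135836214-135836333, plus strand, first base of the match at -27), the D-box TTATGTAA in *Per3* (chr4:151044756-151044875, minus strand, matches at -205 and -158) and the E-box CACGTG in *Tef* (chr15:81802463-81802582, plus strand, match at -127) and in *Bhlhe41* (chr6:145865511-145865630, minus strand, match at -153).
Tnnt2: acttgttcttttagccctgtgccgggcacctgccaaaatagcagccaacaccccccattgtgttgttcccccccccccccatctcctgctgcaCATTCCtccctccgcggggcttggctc
Per3: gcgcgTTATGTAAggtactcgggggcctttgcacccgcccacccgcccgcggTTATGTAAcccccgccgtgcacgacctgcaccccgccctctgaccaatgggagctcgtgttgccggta
Tef: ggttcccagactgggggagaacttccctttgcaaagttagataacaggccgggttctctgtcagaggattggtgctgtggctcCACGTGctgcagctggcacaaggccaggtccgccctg
Bhlhe41: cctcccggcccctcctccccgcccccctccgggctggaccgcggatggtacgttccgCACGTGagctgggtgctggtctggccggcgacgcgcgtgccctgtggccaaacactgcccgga
On either strand and over 250 bases before to 50 after the start, CATTCC occurred in 14.7% of 32851 promoters, the D-box in 0.938% and the E-box, which reads the same on both strands, in 7.15%. CATTCC was not found at the second listed *Tnnt2* start (chr1:135836869-135836988) nor in the promoters of *Des* and *Itih4*, and the windows of both listed *Cp* starts held 1 and the same match, at -1 from the first start and at -196 from the second. Neither of the other motifs was found in the promoters of *Dbp* and *Hlf*. The second listed *Tef* start (chr15:81811204-81811323) also held the E-box, at -138. A match is a run of letters and was not tested as a site. The transcribed genes lie at chr1:135836354-135852260 for *Tnnt2*, chr11:98383811-98384953 for *Tcap*, chr1:75360329-75368579 for *Des*, chr14:30886476-30902353 for *Itih4* and chr3:19957054-20009145 for *Cp*, all on the plus strand (GENCODE M21, GRCm38).

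The share of *Tnnt2*/*Tcap* SMCs among gated SMCs was 57.2% in WT (1629 of 2849 cells, 95% Clopper-Pearson interval 55.3 to 59.0), 51.2% in mgR (1475 of 2883, 49.3 to 53.0) and 53.5% in mgR-LOS (3843 of 7181, 52.4 to 54.7). Of all barcodes that passed the filter they were 30.4%, 18.3% and 30.2%. Their median depth was 14170, 15134 and 8429 UMIs in WT, mgR and mgR-LOS, close to the 14654, 15464 and 8516 UMIs of other SMCs, so the mgR-LOS library was read less deeply per cell. Membership rested on a single UMI in 28, 11 and 177 cells. With cells thinned to 5000 UMIs, where 1 UMI meets the limit, the shares were 64.7%, 59.3% and 61.4%. Cells under 5000 UMIs, 92, 67 and 900 of them, were left out, and 3111, 2907 and 6470 gated SMCs were counted. The set of cells thus changed along with the depth. The order of the libraries depended on the settings. With at least 2 UMIs in place of the limit the shares were 66.3%, 61.9% and 54.1%, so that mgR-LOS was the lowest, and with at most 5% mitochondrial UMIs they were 54.8%, 48.7% and 55.8%, so that mgR-LOS was the highest. In mgR the share was 49.9% from a minimum of 200 genes, and at a limit of 4 per 10000 it was 43.4%, 36.7% and 39.3%.

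The plot of cell shares by *Tnnt2* plus *Tcap* level showed no gap at the limit. *Rgs5*-low gated SMCs with a level between 1.5 and 2 per 10000, just outside, numbered 144, 134 and 285 in WT, mgR and mgR-LOS, and those between 2 and 2.5, just inside, numbered 113, 118 and 295. The highest bin, 16 per 10000 or more, held 13.2%, 7.88% and 11.5% of the cells. No UMI of either gene was found in 17.0%, 23.9% and 28.6%. The 20 nearest neighbours of each cell were found within its library, without *Tnnt2*, *Tcap* and the other genes of the rule. Of the neighbours of *Tnnt2*/*Tcap* SMCs, 65.7%, 60.2% and 61.3% belonged to the group, against 60.2%, 51.9% and 55.0% of all cells searched. The cells were thus a range of SMCs cut at a level, spread among the others, and not a separate cluster.

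**Figure D1:**
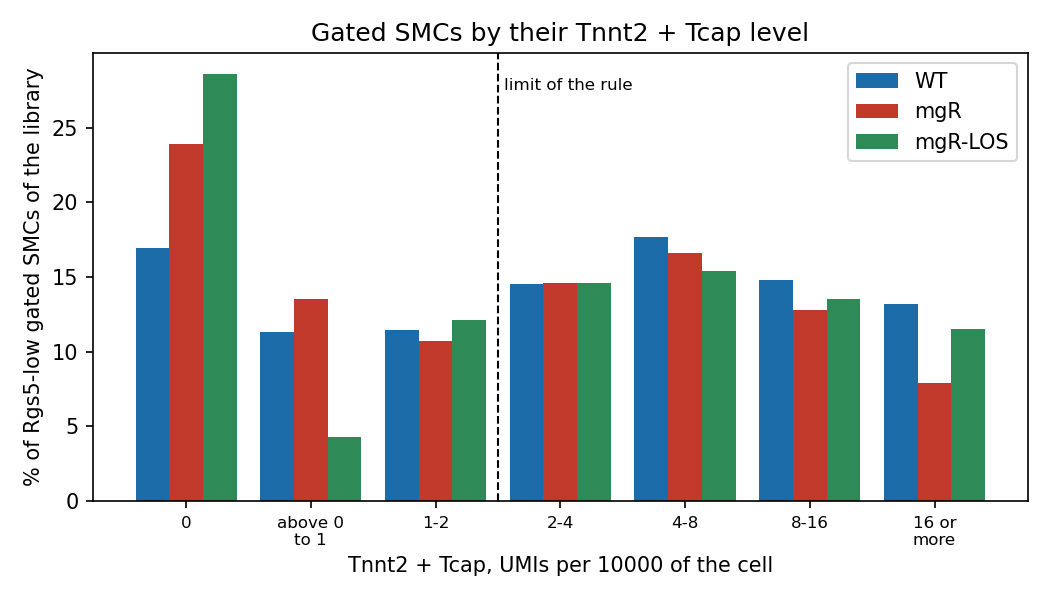
Share of the Rgs5-low gated SMCs of each library (y axis, percent) in bins of Tnnt2 plus Tcap (x axis, UMIs per 10000 of the cell). The dashed line is the limit of 2; the bars to its right are the Tnnt2/Tcap SMCs, and the shares run across it without a gap, between 14.5% and 14.6% in the first bin inside.

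Against other SMCs *Des* and *Cp* were higher in all 3 libraries, and *Itih4* in WT and mgR. These label genes were proposed with results of these data known, so their levels are a description and no check of the label. Levels below are in CPM, the UMIs of a gene per 1000000 UMIs summed over a class of cells. *Tnnt2* stood at 328, 416 and 511 CPM in the *Tnnt2*/*Tcap* SMCs of WT, mgR and mgR-LOS, and *Tcap* at 778, 559 and 588 CPM, as the rule requires. *Des* was at 222 CPM against 107 in other SMCs in WT, 98.3 against 32.7 in mgR and 177 against 58.4 in mgR-LOS, which gave ratios of 2.08 (1.96 to 2.19), 3.01 (2.76 to 3.28) and 3.03 (2.87 to 3.21). All 3 ratios pointed the same way. *Des* stood as high or higher in the 145, 40 and 198 *Rgs5*-rich gated SMCs, at 368 (342 to 395), 117 (87.5 to 154) and 268 (243 to 293) CPM, where *Tnnt2* stood at 316, 391.99 and 495 CPM. In mgR the interval of *Des* included the level of the *Tnnt2*/*Tcap* SMCs, and neither gene was particular to the group. *Des* was nevertheless detected in 34.6%, 18.6% and 25.7% of the *Tnnt2*/*Tcap* SMCs only, and the 10 richest cells gave 9.57%, 22.1% and 7.05% of its UMIs. *Itih4* was at 273 against 210 CPM in WT and 208 against 144 in mgR but at 345 against 337 in mgR-LOS, where its ratio of 1.02 had an interval of 0.996 to 1.05, so it did not mark the group there. *Cp* was at 13.9 against 5.06 CPM in WT, 49.4 against 17.9 in mgR and 40.9 against 19.4 in mgR-LOS. *Cp* was far higher outside smooth muscle, with 227, 401 and 396 CPM in barcodes rich in *Dcn* (fibroblast-type) and 260, 516 and 324 CPM in endothelial-type barcodes.

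**Figure D2:**
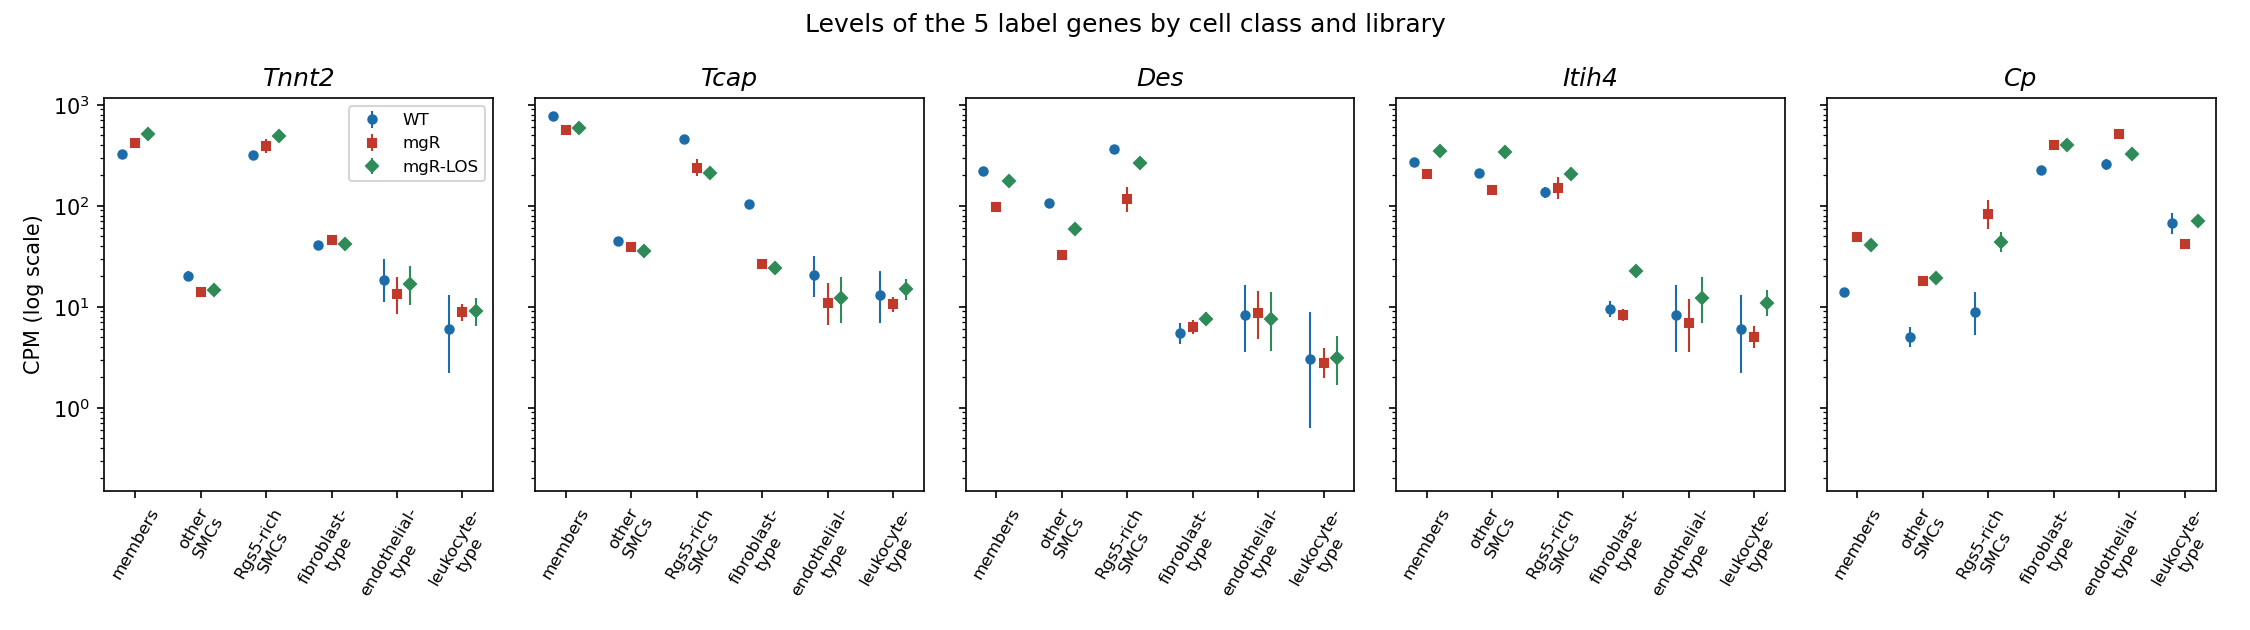
CPM (log scale) of the 5 label genes in 6 classes of barcodes (members are the Tnnt2/Tcap SMCs), 1 point for each library with its exact 95% counting interval. Tnnt2 and Tcap set the first 2 classes apart by the rule; Des and Itih4 were near their lowest outside the SMC classes, while Cp was highest in fibroblast-type and endothelial-type barcodes.

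The share of barcodes with a UMI was also taken in other cell types, where free RNA in the droplets can give UMIs. After thinning to 1000 UMIs, *Tnnt2* was found in 1.96%, 1.63% and 1.36% of leukocyte-type barcodes of WT, mgR and mgR-LOS, against 17.8%, 21.02% and 25.3% of *Tnnt2*/*Tcap* SMCs. *Tcap* was found in 1.96%, 1.06% and 1.70% of leukocyte-type barcodes, against 46.3%, 34.4% and 38.8%. The WT leukocyte-type values rest on 102 barcodes. Fibroblast-type barcodes had *Tnnt2* in 2.78%, 3.20% and 3.10% and *Tcap* in 4.465%, 1.55% and 2.03%. Endothelial-type barcodes had *Tcap* in 4.13%, 1.87% and 0.571%, so the level differed between cell types. The rule picks *Tnnt2*/*Tcap* SMCs for these genes, so their higher shares follow from it and nothing is concluded from the gap. Other SMCs, whose level the rule caps, had *Tnnt2* in 2.24%, 0.951% and 1.31% and *Tcap* in 5.61%, 3.66% and 3.47%. Unthinned, 5.88%, 6.78% and 6.30% of leukocyte-type barcodes and 51.1%, 50.6% and 54.5% of *Tnnt2*/*Tcap* SMCs had a *Tnnt2* UMI, at median depths of 9132, 8273 and 7024 UMIs for the former, and for *Tcap* the shares were 11.8%, 8.62% and 8.52% against 91.65%, 89.4% and 84.8%. Other SMCs, read more deeply than leukocyte-type barcodes, had a *Tnnt2* UMI in 20.65%, 16.01% and 11.5% and a *Tcap* UMI in 42.98%, 38.6% and 26.4% unthinned.

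The defining genes of heart muscle were at or near 0. In *Tnnt2*/*Tcap* SMCs, *Myh6*, the atrial and adult mouse heart myosin, stood at 3.55, 1.06 and 3.09 CPM, *Tnni3*, cardiac troponin I, at 5.39, 0.880 and 2.32 CPM, and *Myl2*, the ventricular light chain, at 1.36, 0.132 and 0.323 CPM. Of 28 cardiomyocyte genes, 5 reached 20 CPM in either class of every library, and none of the 5 was 1.25-fold higher or lower in all libraries, beside 0.404% and 0.283% of all genes compared, so that little can be read from the count. Their most abundant gene was *Hspb7*, a small heat shock protein, at 281, 397 and 292 CPM against 248, 376 and 245.5 in other SMCs, and the summed list stood at 601, 663 and 559 CPM against 550, 628 and 495.5. There were 92.5, 393.5 and 165.4 UMIs of *Tnnt2* for each UMI of *Myh6* in *Tnnt2*/*Tcap* SMCs. Of 14 skeletal muscle genes none reached 20 CPM in all libraries. *Casq1*, skeletal calsequestrin, led that list with 51.3, 12.05 and 11.3 CPM against 56.4, 14.2 and 10.0.

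Of 32 contractile genes of smooth muscle 25 were compared, and 0 were 1.25-fold higher and 0 were 1.25-fold lower in all 3 libraries, where 0.404% and 0.283% of all genes compared were, with median ratios of 0.975, 0.982 and 1.01 in WT, mgR and mgR-LOS. *Mylk*, myosin light-chain kinase, was at 1231, 1161 and 1195 CPM against 1203, 1130 and 1101, and *Myocd*, a coactivator of smooth muscle genes, at 114.5, 148 and 167 CPM against 124, 169 and 184. *Sost*, *Acan* and *Susd5* together reached 2 per 10000 in 96.6%, 96.8% and 90.6% of *Tnnt2*/*Tcap* SMCs and in 95.6%, 95.6% and 90.0% of other SMCs. For *Rbp4* plus *Wif1* the shares were 61.1%, 11.1% and 11.9% against 67.2%, 12.9% and 16.1%. The group thus crossed both of these SMC subsets.

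Few genes separated the classes. Of 4947 genes with at least 20 CPM in either class of every library, leaving out the rule's genes, 1 was at least 2-fold higher in all 3 libraries (*Des*, 0.0202% of those compared) and 0 were at least 2-fold lower (0.00%). With cells thinned to 5000 UMIs the count of higher genes was 0, since *Des* then had a ratio of 1.69 in WT, and with 1 library left out it was 2 or 3. The median ratio of all genes compared was 0.997, 0.997 and 0.996 in WT, mgR and mgR-LOS, and the 5th and 95th percentiles of the ratios in WT were 0.877 and 1.13. At 1.25-fold, a limit added after the 2-fold count was seen, 20 genes were higher (0.404%) and 14 were lower (0.283%).

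Among the genes with the highest ratios in all libraries were several of the circadian clock. A clock list was drawn up only after these genes were seen. Of its 12 genes compared 5 were 1.25-fold higher and 0 lower, beside 0.404% and 0.283% of all genes compared. *Dbp*, *Tef* and *Hlf*, the PAR bZIP factors that carry circadian output, *Per3*, a period gene, and *Bhlhe41*, a repressor of the clock loop, were 5 of the 15 highest. *Dbp* was at 187 against 68.7 CPM in WT, 273 against 175 in mgR and 192 against 92.0 in mgR-LOS. *Per3* was at 24.8 against 9.27, 28.9 against 18.5 and 28.3 against 18.5 CPM. In every library *Per3* thus met the 20 CPM minimum only through the *Tnnt2*/*Tcap* SMCs, where it was high. *Bhlhe41* did so in WT and mgR-LOS, at 15.2 and 16.2 CPM in other SMCs, and *Hlf* in mgR, at 16.9 CPM. *Dbp* and *Tef* met the minimum in both classes of every library. The count of clock genes was favoured by the minimum, so nothing is concluded from it. The lowest ratio of each of these 5 genes was found in mgR or mgR-LOS and the highest in WT, except for *Hlf*, whose ratios were 1.76, 1.60 and 1.77. *Hand2os1*, the antisense RNA next to the heart field gene *Hand2*, was at 48.3 against 29.3, 50.6 against 27.6 and 58.0 against 32.3 CPM. *Pln*, phospholamban, which restrains the calcium pump of the sarcoplasmic reticulum, was at 21.2 against 12.65, 50.7 against 28.2 and 49.7 against 30.2 CPM. *Pkig*, an inhibitor of protein kinase A, *Cxcl12*, a chemokine, *Nrtn*, a neurotrophic factor, *Lpl*, lipoprotein lipase, *Glul*, glutamine synthetase, *Smim5* and *Cys1* made up the rest, with ratios between 1.31 and 1.67.

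The 10 genes with the lowest ratios came next. *Ccn2*, connective tissue growth factor, was at 1867 against 2499 CPM in WT, 1849 against 2575 in mgR and 525.5 against 835 in mgR-LOS. *Lgals3*, galectin-3, was at 29.7 against 57.2, 51.0 against 112 and 39.0 against 59.25 CPM, and *Fn1*, fibronectin, at 400.1 against 530.3, 1583 against 2036 and 469 against 643 CPM. *Itga5*, the fibronectin receptor subunit, had ratios of 0.685, 0.637 and 0.775. *Cd109*, *Mia*, *Rras2*, *Ptgs2*, *Foxs1* and *Tnc*, tenascin-C, completed the lowest 10. Of 19 SMC modulation genes, 6 were compared and *Fn1* and *Lgals3* were 1.25-fold lower while 0 were higher, beside 0.283% and 0.404% of all genes compared. Summed without the rule's gene, the same list had ratios of 1.152, 1.137 and 1.023, but its sum rested largely on *Mgp*, its most abundant gene. *Mgp* was at 6648 against 4791, 26470 against 22330 and 10400 against 9716 CPM. The median ratios of the genes compared were 0.894, 1.064 and 0.928, so no direction is drawn from the sum. Of 19 elastic fibre and latent TGF-beta binding genes compared, 0 were lower and 0 higher, beside the same shares of all genes. That list had summed ratios of 0.838, 0.984 and 0.843 and median ratios of 0.922, 0.985 and 0.920.

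Along the level of *Tnnt2* plus *Tcap* these genes moved by steps and not at the limit alone, as the plot of gene levels by bin shows. In mgR *Des* went from 24.0 CPM in cells with no UMI of either gene through 62.9 at 2 to 4 per 10000 to 206 at 16 or more. In WT *Ccn2* went from 2595 through 2283 to 1370 CPM over the same bins, and in mgR *Lgals3* from 144 through 62.7 to 31.4 CPM. *Dcn*, the fibroblast proteoglycan that the rule limits, also stood higher in the highest bin, at 74.2 against 36.8 CPM in the zero bin of WT, 102 against 47.6 in mgR and 118 against 73.3 in mgR-LOS; its part in the other differences was not tested.

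**Figure D3:**
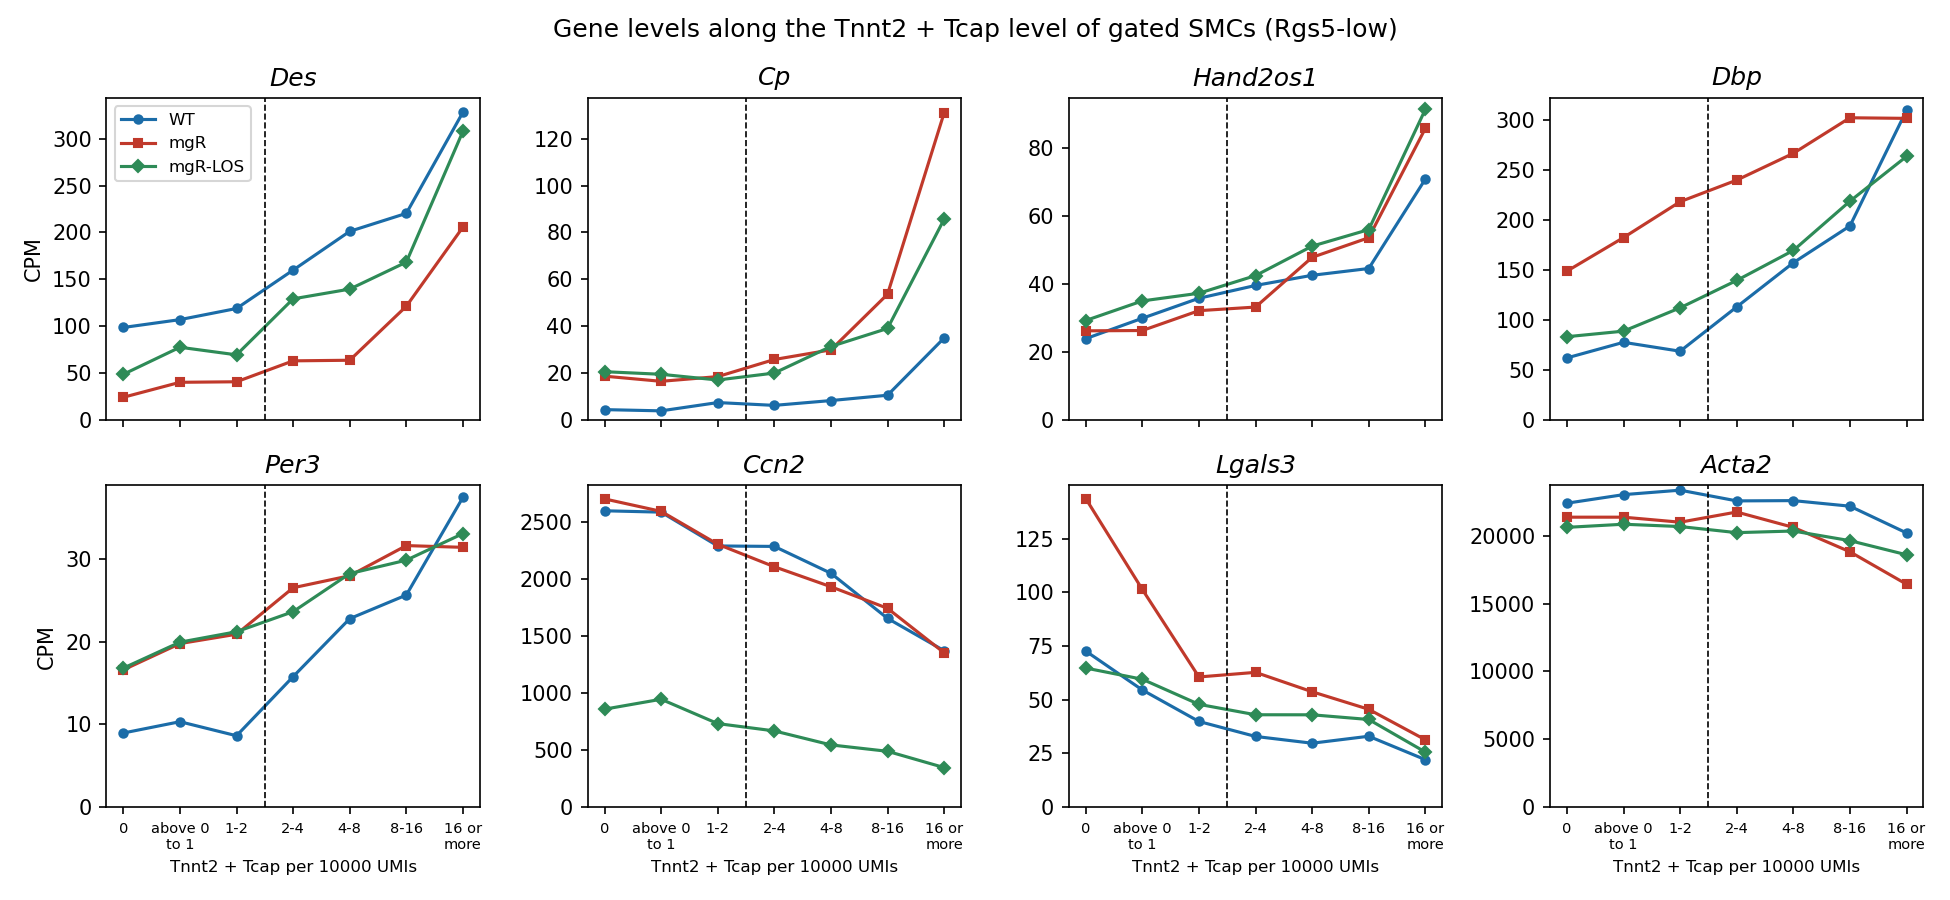
CPM of 8 genes (y axes, from 0) in bins of Tnnt2 plus Tcap (x axes, UMIs per 10000), 1 line for each library; the dashed line is the limit of the rule. Des, Cp, Hand2os1, Dbp and Per3 were higher and Ccn2 and Lgals3 lower in the top bin than in the zero bin of every library, with Des in mgR going from 24.0 to 206 CPM.

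*Tnnt2* and *Tcap* were then taken apart. The shares and the ratios of *Des*, *Itih4* and *Cp* by either gene were part of the plan of the comparison, and the other values of this split were added after the values above were seen. *Tnnt2* alone reached 2 per 10000 in 18.6% of *Rgs5*-low gated SMCs in WT (95% interval 17.1 to 20.1), 18.4% in mgR (16.95 to 19.8) and 23.6% in mgR-LOS (22.6 to 24.6). *Tcap* reached it in 48.9% (47.0 to 50.8), 40.1% (38.3 to 41.9) and 41.4% (40.2 to 42.5). Thinned to 5000 UMIs, the *Tnnt2* shares were 26.1%, 23.8% and 29.96% and the *Tcap* shares 57.9%, 49.4% and 49.6%. At both depths mgR-LOS had the highest *Tnnt2* share, and WT the highest *Tcap* share.

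*Tcap* reached the limit in 51.2% of cells with *Tnnt2* at or over it and in 48.4% of cells below it in WT, where the intervals (46.7 to 55.6 and 46.3 to 50.5) overlapped. In mgR the shares were 45.4% (41.1 to 49.8) and 38.9% (36.9 to 40.9), and in mgR-LOS 49.3% (46.9 to 51.8) and 38.9% (37.6 to 40.25), where the intervals did not overlap within a library. The difference between libraries was not tested. Cells with both were 257, 237 and 814, cells with *Tnnt2* only 245, 285 and 836, and cells with *Tcap* only 1065, 903 and 2076. By any UMI at all, 42.7%, 40.0% and 39.3% of *Tnnt2*/*Tcap* SMCs held both transcripts.

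*Des* went with *Tnnt2* far more than with *Tcap*. Its level was 399, 211 and 351 CPM in cells with *Tnnt2* only, 134, 41.4 and 58.1 CPM in cells with *Tcap* only and 111, 33.7 and 64.8 CPM in cells with neither. The ratio for *Tnnt2* at 2 or more over below was 3.30 (3.15 to 3.47), 5.39 (5.01 to 5.81) and 5.06 (4.83 to 5.30), while that for *Tcap* was 1.15 (1.09 to 1.20), 1.13 (1.05 to 1.22) and 0.960 (0.917 to 1.01). *Cp* also went mostly with *Tnnt2*, with 27.2, 107 and 63.2 CPM in cells with *Tnnt2* only against 5.20, 18.9 and 17.2 CPM with *Tcap* only and 5.09, 18.5 and 19.7 CPM with neither. Cells with both genes had *Cp* at 37.6, 95.95 and 77.4 CPM, and its ratio by *Tcap* was 1.27 (1.04 to 1.555) in WT, 1.06 (0.959 to 1.18) in mgR and 1.19 (1.09 to 1.30) in mgR-LOS. *Gata4*, a transcription factor of heart development, was at 14.9, 18.0 and 16.8 CPM with *Tnnt2* only against 3.01, 3.06 and 3.53 CPM with *Tcap* only. It was under the 20 CPM minimum and is named after its values were seen. *Tcf21*, also under the minimum, was at 10.05, 14.9 and 9.19 against 3.55, 2.77 and 2.02 CPM. Other regulators differed, and their list is counted below. *Tbx20* had ratios of 1.05, 0.868 and 0.936 for *Tnnt2* at 2 or more over below. *Hand2* was at 83.1, 96.1 and 116 CPM with *Tnnt2* only against 85.7, 92.7 and 101 CPM with *Tcap* only. *Isl1*, under the minimum, was at 3.53, 3.83 and 5.36 against 0.957, 1.02 and 1.96 CPM.

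Of 4980 genes compared for *Tnnt2*, 10 were at least 2-fold higher in all libraries (0.201%) and 3 at least 2-fold lower (0.0602%), and at 1.25-fold 65 (1.31%) and 48 (0.964%). The 10 higher genes were *Cp*, *Psd*, *Des*, *Arhgdib*, *Tmem204*, *Serpinf1*, *Lum*, *Tmem176b*, *Hand2os1* and *Cxcl12*. Of these only *Des*, *Hand2os1* and *Cxcl12* reached 20 CPM in cells with *Tnnt2* below the limit in every library. The others met the minimum in at least 1 library only through the *Tnnt2* class, where they were high. Those 3 lower were *Npr1*, the receptor of atrial natriuretic peptide, at 28.6 against 65.9, 18.6 against 51.4 and 16.3 against 55.5 CPM, *Aqp1*, a water channel, and *Gldn*, gliomedin. *Npr1* in mgR and mgR-LOS and *Gldn* in WT and mgR-LOS met the minimum only through cells below the limit, where they were high. *Aqp1* met it in both classes of every library. The count of lower genes was thus also favoured by the minimum. Of 26 Z-disc and intermediate filament genes compared, 3 were 1.25-fold higher (*Des*, *Myoz2*, a Z-disc protein that binds calcineurin, and *Ankrd1*, a titin-binding stretch gene) and 0 lower, and of 5 cardiomyocyte genes 1 was higher (*Myoz2*, on both lists). In WT *Ankrd1* met the minimum only through the *Tnnt2* class, at 29.9 against 16.1 CPM. Of 17 heart field and outflow tract regulators 2 were higher (*Twist1* and *Meis2*) and 1 lower (*Prdm6*). *Meis2* was at 91.4 against 56.8, 78.7 against 44.7 and 133 against 72.5 CPM. Of the 12 clock genes compared, 0 passed in either direction.

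Some fibroblast transcripts were also higher with *Tnnt2*. Of 6 fibroblast genes compared 2, *Lum*, lumican, and *Serpinf1*, pigment epithelium-derived factor, were at least 2-fold higher, beside 0.201% of all genes compared. In WT and mgR both met the 20 CPM minimum only through the *Tnnt2* class, where they were high, so nothing is concluded from the count. *Lum* was at 37.9 against 8.08 CPM in WT, 82.4 against 19.8 in mgR and 75.3 against 29.6 in mgR-LOS. *Dcn* was at 76.4 against 31.6, 91.4 against 35.85 and 115 against 70.0 CPM. The fibroblast list as a whole went both ways, with median ratios of 0.888, 1.2 and 0.978 and, summed without *Dcn*, ratios of 0.878, 1.17 and 0.971. Globin levels rested on few cells. *Hbb-bs*, a beta-globin gene, was at 100.8 against 27.25 CPM in WT, 261 against 22.6 in mgR and 83.65 against 49.3 in mgR-LOS, and 1 cell of the *Tnnt2* class gave 703 of 736, 2034 of 2137 and 615 of 1259 UMIs. Without the richest cell of each class it was at 4.53 against 4.40, 12.6 against 13.6 and 42.8 against 34.0 CPM, and without the 10 richest at 1.54 against 3.83, 5.46 against 9.58 and 14.05 against 16.7 CPM, so no red cell difference is drawn from it. Without the 10 richest cells of each class *Lum* was at 18.3 against 6.10, 56.4 against 14.9 and 63.1 against 23.9 CPM, and *Des* at 351 against 109, 146 against 26.8 and 290.1 against 56.3 CPM, a look added after the values were seen. Barcodes called as doublets were 4.05%, 7.25% and 10.5% of *Tnnt2*/*Tcap* SMCs and 3.26%, 6.725% and 7.71% of other SMCs, and without them *Des* had ratios of 2.12, 2.84 and 2.94. The part of these other transcripts in the *Tnnt2* differences was not tested.

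Some clock genes went with *Tcap*. *Dbp* was at 210, 296 and 209 CPM in cells with *Tcap* only, 65.7, 171 and 111.5 CPM in cells with *Tnnt2* only and 68.8, 176.5 and 92.4 CPM in cells with neither. *Per3* was at 24.95, 30.4 and 29.3 CPM with *Tcap* only against 17.1, 19.4 and 21.8 CPM with *Tnnt2* only and 9.51, 19.1 and 18.6 CPM with neither. Of 19 clock genes, a list drawn up after *Dbp* and its relatives were seen, 12 were compared, and *Per3*, *Dbp*, *Tef*, *Hlf* and *Bhlhe41* were 1.25-fold higher with *Tcap* at 2 or more in all libraries while 0 were lower and the rest passed in neither direction, beside 0.262% higher and 0.383% lower of all genes compared. *Per3* in WT and mgR, *Bhlhe41* in WT and mgR-LOS and *Hlf* in mgR met the 20 CPM minimum only through the *Tcap* class, where they were high. With neither gene *Bhlhe41* was at 15.8 and 16.3 CPM in WT and mgR-LOS, and *Hlf* at 16.9 CPM in mgR. *Dbp* and *Tef* met the minimum in both classes of every library. The count was thus favoured by the minimum, and nothing is concluded from it. *Nr1d1* and *Nr1d2*, the REV-ERB repressors, were higher by less, with ratios of 1.30, 1.13 and 1.25 for *Nr1d1*. *Arntl*, which encodes the clock activator BMAL1, was at 4.11 against 10.2, 1.26 against 3.42 and 2.24 against 4.54 CPM, *Npas2*, its partner, at 5.26 against 10.2, 2.35 against 4.02 and 3.08 against 4.56 CPM and *Nfil3*, a repressor at the D-box, at 25.1 against 39.9, 8.41 against 14.0 and 11.6 against 22.0 CPM. These last 3 lay in the direction opposite to the D-box activators in every library. None of the last 3 met the 20 CPM minimum in all libraries, and the time of day at tissue collection is not given in the labels.

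Of 4955 genes compared for *Tcap*, 0 were at least 2-fold higher (0.00%) and 0 at least 2-fold lower (0.00%) in all libraries, with 13 (0.262%) and 19 (0.383%) at 1.25-fold. The rest of the 10 highest were *Pln*, *Smim5*, *Nrtn*, *Pkig* and *Serpini1*, neuroserpin. *Pln* was at 22.3 against 13.6, 57 against 28.5 and 53.0 against 32.7 CPM. The 10 lowest held *Igfbp2*, a binding protein of insulin-like growth factors, at 23.4 against 126.5, 1303 against 1790 and 282 against 419 CPM, *Tgfb2*, at 141 against 193, 217 against 284 and 178 against 235 CPM, and *Lox*, the collagen and elastin cross-linking enzyme, at 238 against 337, 343 against 467 and 163 against 229 CPM. *Ankrd1*, *Itga5*, *Bdnf*, *Ccn2*, *Cd109*, *Anxa3* and *Cdkn1a* were the others. *Ankrd1* lay on opposite sides for the 2 genes, with ratios of 1.85, 1.63 and 2.25 for *Tnnt2* and 0.706, 0.655 and 0.683 for *Tcap*.

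**Figure D4:**
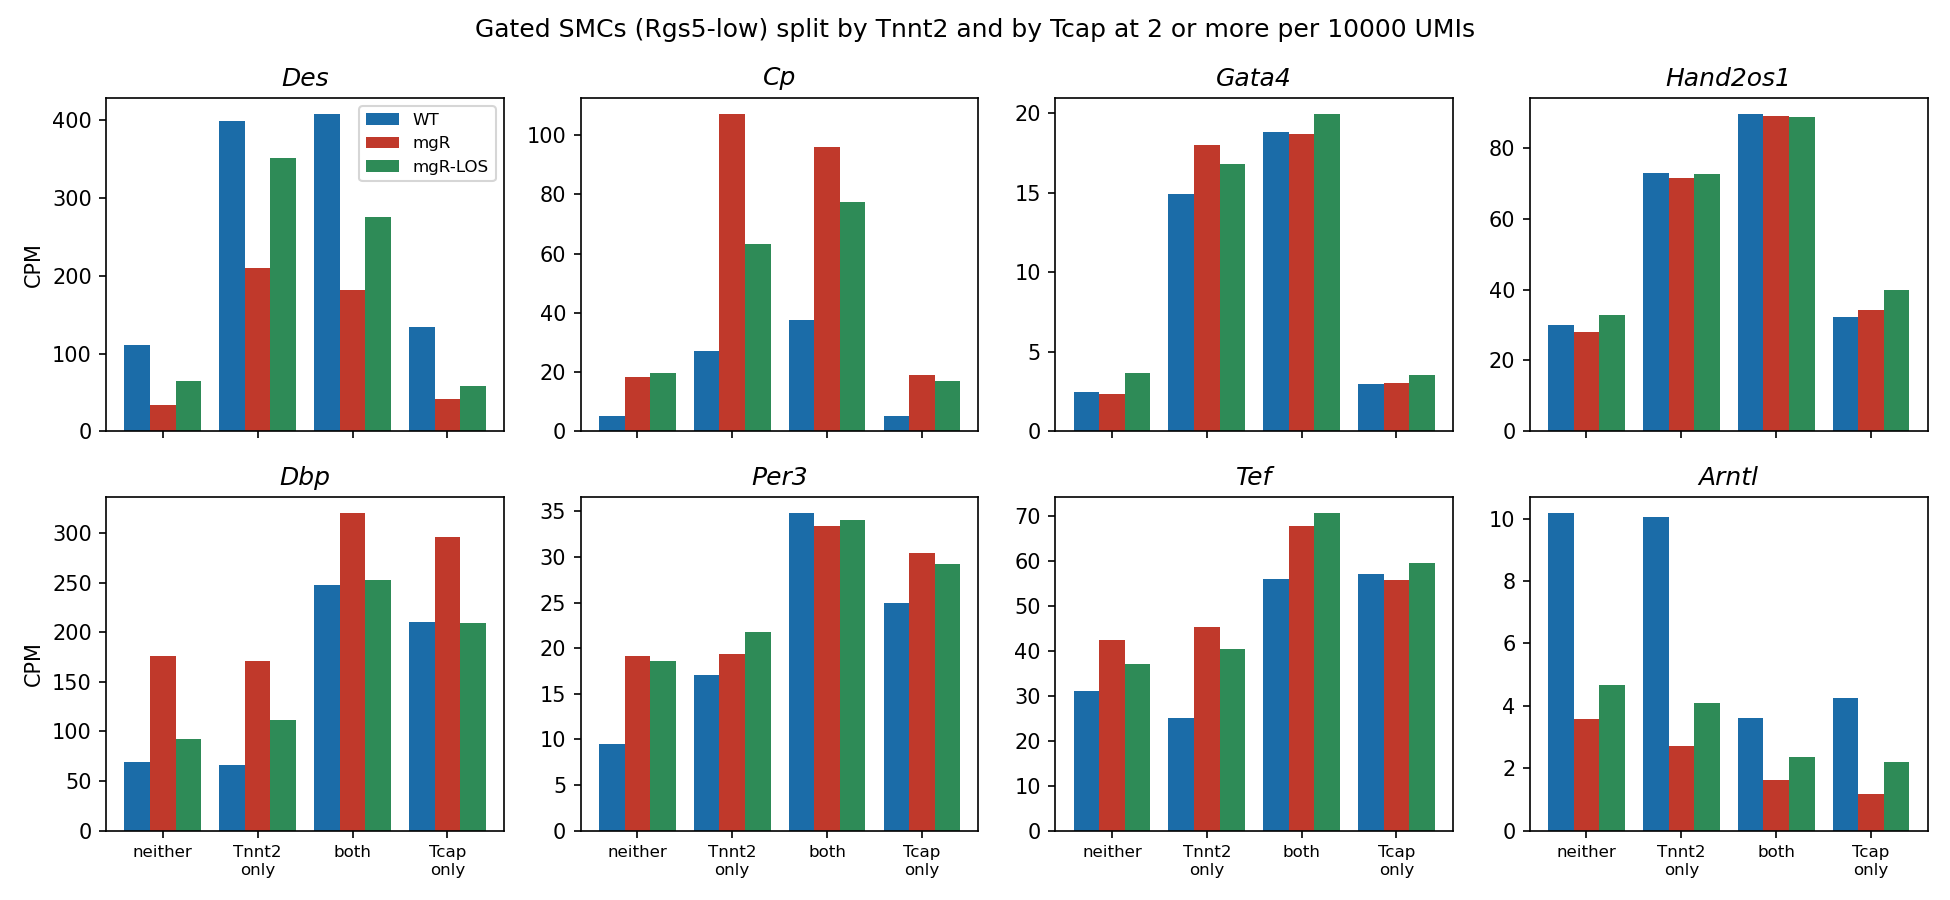
CPM of 8 genes (y axes, from 0) in Rgs5-low gated SMCs split by Tnnt2 and by Tcap at 2 or more UMIs per 10000, with 1 bar for each library. Des, Cp, Gata4 and Hand2os1 were high wherever Tnnt2 was (Des in WT 399 and 408 against 134 and 111 CPM), whereas Dbp, Per3 and Tef were high and Arntl low wherever Tcap was.

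The groups of mice were compared within *Tnnt2*/*Tcap* SMCs and, side by side, within other SMCs, and the difference between the cell classes was not tested. Of 1506 genes with at least 100 CPM in either library, 29 were at least 2-fold higher in mgR than in WT (1.93%) and 24 at least 2-fold lower (1.59%), against 1.84% and 1.97% among other SMCs. *Fbn1* itself was at 228 CPM in WT, 80.0 in mgR and 63.9 in mgR-LOS, so both libraries labelled *Fbn1* mgR/mgR were the lower ones. *Igfbp2* was at 60.4 CPM in WT and 1457 in mgR, *Vcam1*, an adhesion molecule, at 11.96 and 181, *Thbs1*, thrombospondin-1, at 9.82 and 145, and *Col8a1* at 7.36 and 102. *Sncg*, *Acan*, *Sphkap* and *Mgp* were the next highest, with ratios from 3.98 to 6.56. *Rbp4* was at 256 and 51.3 CPM, *Wif1*, a secreted Wnt inhibitor, at 163 and 29.1, and *Kcnj15*, an inward rectifier potassium channel, at 112 and 19.6. *Pdlim4*, *Dsp*, *Pcolce2*, *Aspn* and *Fbn1* completed the 8 lowest. Of 19 SMC modulation genes 7 were measured, of which 5 were at least 2-fold higher and 0 lower, and of 29 contractile genes 0 were either. Genes under 100 CPM in 1 library, such as *Vcam1* and *Col8a1* in WT, entered only through the library where they were higher. Such counts therefore favour a difference. *Des* was at 0.442 of its WT level (0.420 to 0.464), and at 0.305 in other SMCs. *Dbp* had ratios of 1.455 (1.40 to 1.51) and 2.548 (2.38 to 2.73) in *Tnnt2*/*Tcap* SMCs and other SMCs. For *Thbs1* the WT level rested on few cells, with 55.8% of its 224 UMIs in 10 *Tnnt2*/*Tcap* SMCs and 78.8% of its 316 UMIs in 10 other SMCs. For *Igfbp2* 10 *Tnnt2*/*Tcap* SMCs gave 42.1% of its 1379 UMIs in WT and 9.67% of its UMIs in mgR.

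Of 1527 genes compared between mgR-LOS and mgR, 8 were at least 2-fold higher (0.524%) and 20 at least 2-fold lower (1.31%), against 0.979% and 1.24% among other SMCs. Those highest were *Zbtb16*, a transcription factor, at 144 against 17.5 CPM, *Gm26802*, *Apoe*, *Plekho1*, *Hes1*, a target of Notch, *Arl6ip5*, *Gpc6* and *Hspa1a*. The lowest were *Igfbp2*, at 288 against 1457 CPM, *Col8a1*, *Vcam1*, *Thbs1*, *Ccn2*, at 525.5 against 1849, *Fn1*, at 469 against 1583, *Mgp* and *Sphkap*. Of 7 SMC modulation genes 4 were at least 2-fold lower (*Vcam1*, *Mgp*, *Fn1* and *Col8a1*). Of 13 elastic fibre and latent TGF-beta binding genes 3 were (*Eln*, *Lox* and *Thbs1*). *Vcam1*, *Col8a1* and *Thbs1* met the minimum level only through mgR, at 47.5 against 181, 25.8 against 102 and 40.2 against 145 CPM. Their direction followed from that minimum, so nothing is concluded from their place in the counts. *Mgp*, *Fn1*, *Eln* and *Lox* met it in both libraries. In the other direction *Zbtb16* met it only through mgR-LOS. *Des* was 1.80 times its mgR level (1.72 to 1.89). *Comp*, a cartilage matrix protein far under the 100 CPM minimum, was chosen after its values were seen. It lay in opposite directions, at 5.26 against 9.855 CPM in *Tnnt2*/*Tcap* SMCs and 9.23 against 4.96 CPM in other SMCs. Its mgR levels rested on 224 and 106 UMIs, and the part of its richest cells was not computed, so no reversal is drawn from it. Both comparisons use the mgR library, and the shallower reading of mgR-LOS, its own library and losartan cannot be told apart.

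**Figure D5:**
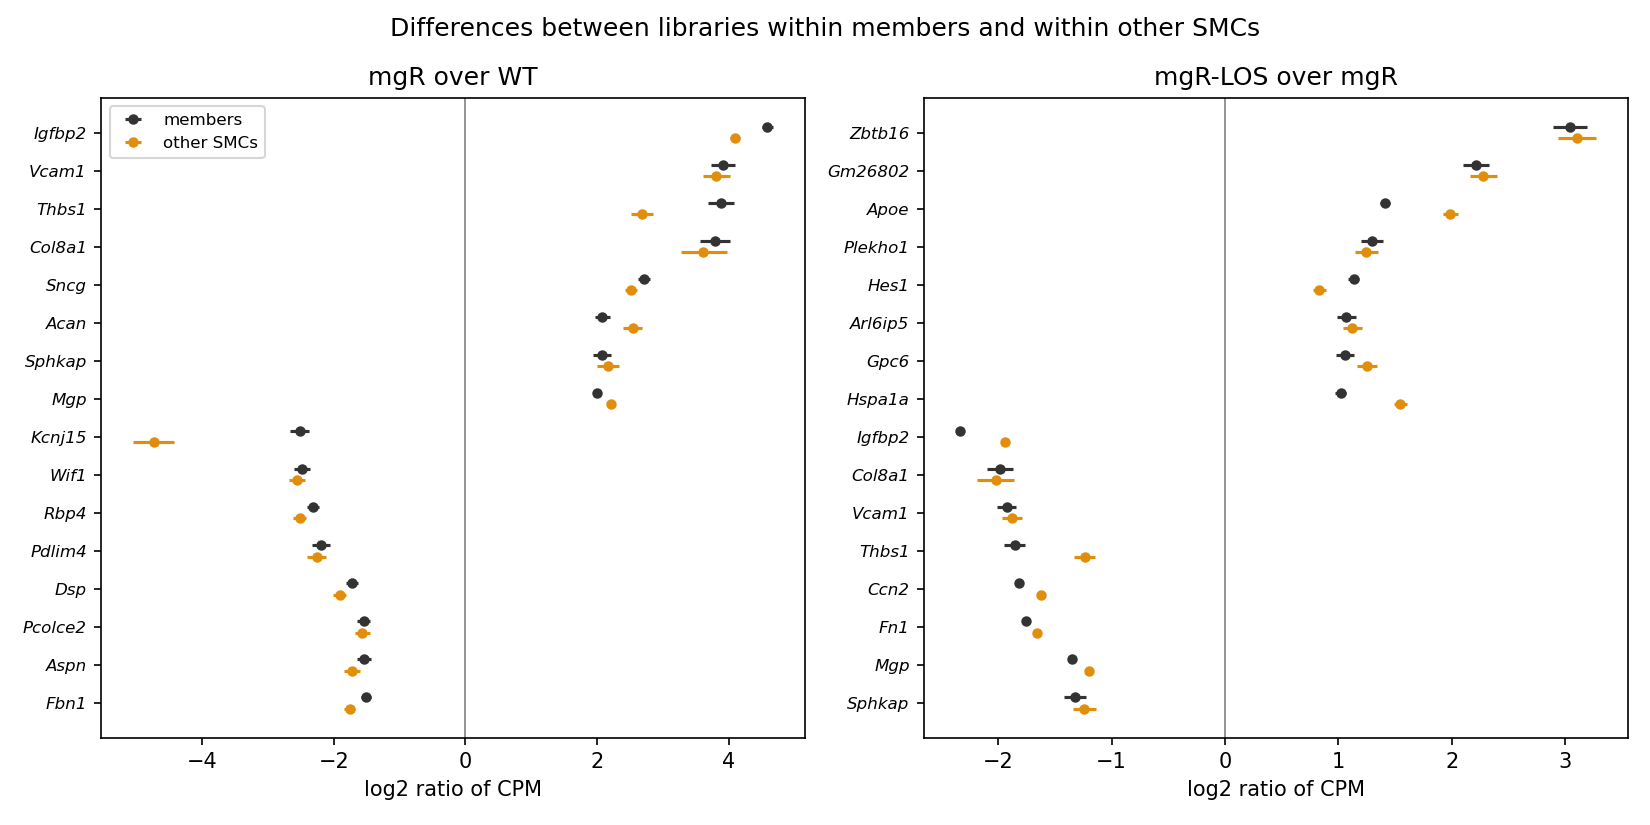
Log2 ratio of CPM (x axis) for mgR over WT on the left and mgR-LOS over mgR on the right, for the 8 highest and 8 lowest genes in Tnnt2/Tcap SMCs (dark, labelled members) and in other SMCs (orange), with exact 95% counting intervals. All 32 pairs of points lie on the same side of 0, and Kcnj15 is the pair with the widest gap.

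*Kcnj15* had the widest gap between *Tnnt2*/*Tcap* SMCs and other SMCs among the genes named for these comparisons, 0.175 against 0.0378 for mgR over WT, and it followed *Tnnt2*; this look was added after its values were seen. In WT it was at 121 CPM in cells with *Tnnt2* at 2 or more and 111 CPM in cells below, and 66.9% and 61.8% of those cells had a UMI of it. In mgR it was at 44.4 CPM (112 of 522 cells, 21.5%) against 4.85 CPM (91 of 2321 cells, 3.92%), and in mgR-LOS at 22.8 CPM (194 of 1650 cells, 11.8%) against 3.80 CPM (125 of 5333 cells, 2.34%). Its mgR level was 0.368 of the WT level (0.324 to 0.416) in the former cells and 0.0439 of it (0.0374 to 0.0511) in the latter. Without called doublets the mgR levels were 44.1 and 4.49 CPM. The 10 richest cells gave 27.3% and 27.01% of the UMIs in mgR. With *Tcap* in place of *Tnnt2* the ratios within a library were 0.977, 1.23 and 1.43 in WT, mgR and mgR-LOS. Passing barcodes outside the SMC gate held *Kcnj15* at 116, 22.7 and 17.2 CPM.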

How the data were processed

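Per the labels, the submitters' processing notes and the file headers, the authors aligned reads to mm10 with Cell Ranger (the notes give 6.0.1 for all libraries, the headers 5.0.1 for WT and mgR and 6.0.1 for mgR-LOS) and deposited UMI count matrices, 1 per group, of 32285 genes by 7858 (WT), 10657 (mgR) and 14663 (mgR-LOS) barcodes with 83338726, 123956320 and 121436873 UMIs. From these counts, filters and classes were computed in Python 3.11.15 as stated in the text. CPM are UMIs summed over a class divided by its total. Ratio intervals are exact conditional binomial, level intervals exact Poisson and shares Clopper-Pearson, at 95%, and cover counting error only. Cells are not replicates, so no p-value was computed. The ratio step was tested on simulated counts. Named genes were the label and rule genes, the 15 highest and 10 lowest by the least extreme of the 3 library ratios, and 8 of each for each comparison of groups. Doublets were called by artificial neighbours at a rate of 0.8% for each 1000 barcodes and kept. Libraries shared 22, 29 and 46 barcode sequences, 2 of them among *Tnnt2*/*Tcap* SMCs. Fibroblast-type barcodes had *Dcn* at 20 or more per 10000. The cells and gene lists were chosen with earlier results of these data known, and the promoter of *Tcap* was not used here. RefSeq promoters were at hand for 4 of the 5 label genes, all but *Tcap*, and for 5 of 5 clock genes. Alternatives are given at the end.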

Additional observations from a re-analysis of the deposited data

Results flagged for a closer look

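Among barcodes that failed the filter on genes and mitochondrial UMIs, and so were outside every comparison, 24 in WT, 8 in mgR and 3 in mgR-LOS carried at least 50 UMIs per 10000 of cardiomyocyte genes. They are given here for their signal in data that were not otherwise used. Among passing barcodes 2, 1 and 0 did, and none of these was a *Tnnt2*/*Tcap* SMC. The failed barcodes held 0.864, 1.32 and 3.71 UMIs of *Tnnt2* for each UMI of *Myh6*, the passing ones 38.25 in WT and 89 in mgR, and *Tnnt2*/*Tcap* SMCs 92.5, 393.5 and 165.4. *Tnnt2* is in the rule of the group and the other barcodes were picked by cardiomyocyte genes. The order of these values thus follows in part from the selection.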

How the results depend on the processing

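Of 132 alternatives 68 left the value within its error, 63 moved it and 1 reversed it; where none is named the cause was not tested. Values are in the order WT, mgR, mgR-LOS. The share of gated SMCs was 68.1%, 61.7% and 65.3% at a limit of 1, 43.4%, 36.7% and 39.3% at 4, 66.3%, 61.9% and 54.1% with at least 2 UMIs, 17.6%, 18.1% and 22.98% with *Tnnt2* alone, 46.4%, 39.5% and 40.2% with *Tcap* alone, 64.7%, 59.3% and 61.4% thinned, 54.8%, 48.7% and 55.8% with at most 5% mitochondrial UMIs, 54.8% (WT) from 200 genes, and 60.5% and 54.9% (WT, mgR-LOS) with no *Rgs5* limit. Genes at least 2-fold higher numbered 32 (16 lower) with no minimum level, 0 thinned, 10 (3 lower) by *Tnnt2*, 0 by *Tcap*, and 20 (14 lower) at 1.25-fold. With 1 library left out the count was 3 without WT, 3 without mgR and 2 without mgR-LOS, since fewer libraries had to pass. The *Des* ratio was 3.30, 5.39 and 5.06 by *Tnnt2*, 1.15, 1.13 and, reversed, 0.960 by *Tcap*, 1.69 thinned (WT) and 2.57 at a limit of 4 (mgR-LOS). The *Itih4* ratio was 1.23, 1.26 and 0.937 by *Tcap*, 1.75 and 1.13 by *Tnnt2* (mgR, mgR-LOS), 1.54 and 1.07 at 4 (mgR, mgR-LOS) and 1.19 thinned (WT). The *Cp* ratio was 6.29, 5.47 and 3.73 by *Tnnt2*, 1.27, 1.06 and 1.19 by *Tcap*, 2.39 as a mean over cells (mgR), and 2.5 at 4 and 1.91 without doublets (mgR-LOS). The neighbour excess of 5.44, 8.30 and 6.30 percentage points was 2.48, 3.50 and 3.62 thinned. With at least 50 CPM, 86 genes differed 2-fold between mgR and WT and 51 between mgR-LOS and mgR, against 53 and 28, since more genes were compared. No paired analysis of the groups of mice was possible because each had 1 library. Cell classes were paired within each library and compared there by ratios, without a test over the libraries. For counts of genes, the splits by a single gene and the 1.25-fold limit were chosen after seeing the data. At the depth of these libraries 28, 11 and 177 cells entered on 1 UMI of *Tnnt2* or *Tcap*.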

Other observations

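Of 10 copper and iron genes compared 3 were 1.25-fold higher with *Tnnt2* at 2 or more per 10000 in all libraries (*Cp* and the metallothioneins *Mt1* and *Mt2*) and 0 were lower, beside 1.31% and 0.964% of all genes compared. *Cp* met the 20 CPM minimum only through the *Tnnt2* class, at 5.14, 18.7 and 18.8 CPM in cells below the limit, so its place in the count was favoured by the minimum. The list's median ratios were 1.015, 1.085 and 0.992 in WT, mgR and mgR-LOS. Of the SMC subset genes *Acan*, *Susd5* and *Wif1* were 1.25-fold lower, with ratios of 0.592, 0.539 and 0.608 for *Acan*, aggrecan, in WT, mgR and mgR-LOS.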
